A study of Mus musculus with 6 samples.

Results

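The desmosome genes are 10 genes for proteins of the desmosome and its plaque, taken as a named list (Dsg2, Dsc2, Dsc3, Jup, Pkp1, Pkp2, Pkp3, Pkp4, Dsp and Evpl) out of 21966 genes in the RNA-seq table. All 10 had an acceptable quantification status in both conditions, as did 21959 genes in all. The RNA-seq compared mouse primary colon tumor cells with a transgene for the Pak inhibitor domain, a peptide that blocks Group I Pak kinases (PID+), and tumor cells without it (PID-). PID- cells carried CDX2P-NLS-Cre and a deleted Apc allele, and PID+ cells carried these and the ROSA26-PID transgene. In both groups Cre was driven by the CDX2 promoter, which acts in the intestinal epithelium, and the cells were lines grown from adenomas in RPMI with serum. The labels name 3 mice per condition (numbers 4, 7 and 26 for PID+, 1, 2 and 3 for PID-). The paper uses the same numbers for its PID+ lines and others for its PID- lines. The labels also call the PID- samples normal, whereas the methods describe tumor cells of both genotypes and call the reads of a condition repeated sequencing runs. The authors pooled the reads of each condition, so each gene has 1 value per condition, no difference has a replicate check, and no test was possible.

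Desmosomes are spot-like junctions that hold neighboring epithelial cells together and tie their intermediate filaments into a continuous network. Desmogleins and desmocollins, the desmosomal cadherins, bridge the gap between cells. Inside the cell, plakoglobin and the plakophilins bind the cadherin tails and connect them to desmoplakin, which holds the keratin filaments. Simple epithelia such as that of the colon use Dsg2 and Dsc2, whereas the other desmogleins and desmocollins are known mainly from stratified epithelia.

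Levels are given as FPKM, in which fragment numbers are divided by transcript length and library size, with the lower and upper bound of the interval that CuffDiff gave. These intervals cover its error model only and not the spread between mice. Changes are log2 ratios of FPKM + 1 in PID+ over PID- cells, which shrinks differences between low values. A gene was called higher or lower at a fold of at least 3 on that scale. The samples are bulk RNA, in which fewer cells of a type and less RNA per cell cannot be told apart.

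Of the 10 desmosome genes, Evpl and Pkp3 were higher in PID+ cells by at least 3-fold, and 0 were lower by that much. Among all 21959 genes, 1.04% were at least 3-fold higher and 1.72% at least 3-fold lower, and among the 9341 genes whose FPKM averaged at least 5 the shares were 1.54% and 2.37%. Dsg2 lay just below the threshold. At 2-fold, 3 members were higher and 0 lower, against 3.31% and 3.77% of all genes and 5.01% and 5.2% of those averaging at least 5. The other 7 members differed by less than 2-fold on this scale. Over the 10 genes the log2 change had a median of 0.33, against 0 for all genes, and 8 members had the higher value in PID+ cells. Of all 21959 genes, 9001 had the higher value in PID+ cells, 8726 the lower and 4232 were equal. Of the 9341 averaging at least 5 FPKM, 4660 had the higher value. When both conditions were set to equal Gapdh FPKM, 5 members had the higher value, 0 passed 3-fold, and the median was -0.093. That scaling divides every PID+ value by 1.54, which on the FPKM + 1 scale hardly moves genes near 0. The share of all genes past 3-fold was not calculated under it. The median of genes averaging at least 5 FPKM became -0.58, and of the 9 members at that level 7 lay above it, as in the deposited values. Since 1 factor moves members and that median nearly alike, the unchanged number is no separate check. With the median change of its chromosome subtracted from each gene, 8 of the 9 lay above the median.

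**Figure D1:**
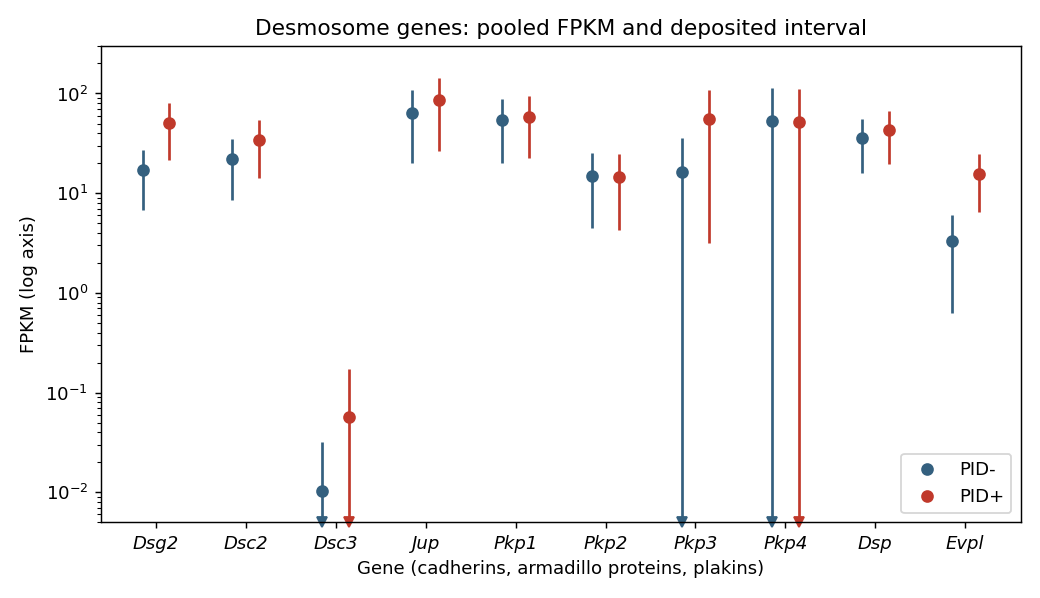
FPKM of the 10 desmosome genes (log axis) in PID- and PID+ cells. Points are the pooled values, lines the deposited intervals, and arrowheads mark intervals that reach 0. The intervals of Evpl are apart, those of the other 9 genes overlap, and Dsc3 lies far below the rest.

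Among the cadherins, Dsg2 had the larger difference. Dsg2 (ENSMUSG00000044393.12, chromosome 18), the desmoglein of simple epithelia, stood at 51.0 FPKM in PID+ cells (interval 21.7 to 80.3) and at 17.1 in PID- cells (6.80 to 27.4), so that its log2 change was 1.52. Dsc2 (ENSMUSG00000024331.8, chromosome 18), its desmocollin partner, stood at 34.4 (14.3 to 54.6) and 21.9 (8.51 to 35.3), with a log2 change of 0.63. Deposited intervals of both genes overlapped between the conditions. The order of the pair differed: Dsg2 was at 0.779 times the level of Dsc2 in PID- cells and at 1.48 times that level in PID+ cells, a ratio that does not depend on the scaling of the libraries. Within each condition the intervals of the pair overlapped. In GENCODE M21 Dsg2 overlaps the gene Gm16090. The library kit does not mark strand, so reads of the shared stretch do not show which gene they came from. The authors used an annotation of protein coding genes, and whether it held Gm16090 is not known. Reads of the stretches that Pkp1 shares with Gm36938 and Dsp shares with Gm10129 have the same limit.

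Dsc3 (ENSMUSG00000059898.8, chromosome 18), a desmocollin of stratified epithelia, was barely detected. It was listed at 0.0571 in PID+ cells (0 to 0.171) and 0.0104 in PID- cells (0 to 0.0322), which corresponds to about 20 and 5 reads. A ratio of such values carries little weight, and the log2 change of 0.07 is set mainly by the pseudocount. The desmosomal cadherins outside the list were also low. Dsg3 was at 1.44 in PID+ and 0.135 in PID- cells, and Dsg1a, Dsg1b, Dsg1c, Dsg4 and Dsc1 were all below an FPKM of 1 in both conditions. Of the summed FPKM of the 9 desmosomal cadherin genes, 87.1 in PID+ and 39.2 in PID- cells, Dsg2 made up 58.5% and 43.6%, and Dsc2 39.5% and 56.0%. In both conditions the cadherin mRNA was therefore nearly all Dsg2 and Dsc2.

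The armadillo proteins showed a gap between Pkp3 and the rest. Plakoglobin (Jup, ENSMUSG00000001552.11, chromosome 11 of GRCm38 from 100368958 to 100397763), which links both desmosomal and classical cadherins to the cytoskeleton, stood at 85.6 FPKM in PID+ (26.8 to 144) and 64.5 in PID- cells (20.1 to 109), with a log2 change of 0.40. It was the most abundant member in both conditions. Its relative β-catenin (Ctnnb1), which serves the adherens junction and Wnt signaling, was at 482 and 435. Jup thus stood at 0.178 times the Ctnnb1 level in PID+ and 0.148 times in PID- cells.

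Plakophilins bind the cadherin tails and desmoplakin and help to cluster them. Pkp3 (ENSMUSG00000054065.8, chromosome 7 from 141078218 to 141090510), found in desmosomes of both simple and stratified epithelia, stood at 55.8 FPKM in PID+ (3.20 to 108) and 16.3 in PID- cells (0 to 36.1), with a log2 change of 1.72. Its intervals were wide and overlapped. The 646 genes of chromosome 7 averaging at least 5 FPKM had a median log2 change of 0.25, and after subtracting it the change of Pkp3 was 1.47, below the 3-fold threshold.

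The other plakophilins were close to equal in the deposited values. Pkp1 (ENSMUSG00000026413.9, chromosome 1 from 135871395 to 135919207), best known from stratified epithelia, was at 58.2 (22.4 to 94.0) in PID+ and 54.2 (20.3 to 88.1) in PID- cells. Pkp2 (ENSMUSG00000041957.12, chromosome 16 from 16213318 to 16272712), the plakophilin shared by heart and simple epithelia, was at 14.5 (4.24 to 24.8) and 14.8 (4.46 to 25.1). Pkp4 (ENSMUSG00000026991.17, chromosome 2 from 59160850 to 59355208), which is found at adherens junctions as well as desmosomes, was at 51.3 (0 to 111) and 53.2 (0 to 115). The log2 changes were 0.10, -0.02 and -0.05, and those of Pkp1 and Pkp2 changed sign under other settings. Chromosome 16, which carries Pkp2, had a median log2 change of -0.50 over 277 genes, and relative to it Pkp2 was at 0.48.

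In the deposited values Pkp3 made up more of the plakophilin mRNA in PID+ cells. It was 31.0% of the summed plakophilin FPKM in PID+ and 11.8% in PID- cells. Pkp1 was 32.4% and 39.2%, Pkp4 28.5% and 38.4%, and Pkp2 8.08% and 10.7%. Pkp3 was at 0.300 times the level of Pkp1 in PID- cells and at 0.959 times in PID+ cells. In PID- cells it stood close to Pkp2, the lowest of the family, and in PID+ cells close to Pkp1, the highest, but the intervals of Pkp3 overlapped those of Pkp1 and of Pkp2 in both conditions. With chromosome medians subtracted the log2 changes of Pkp3 and Pkp2, 1.47 and 0.48, lay closer together than the deposited 1.72 and -0.02.

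**Figure D2:**
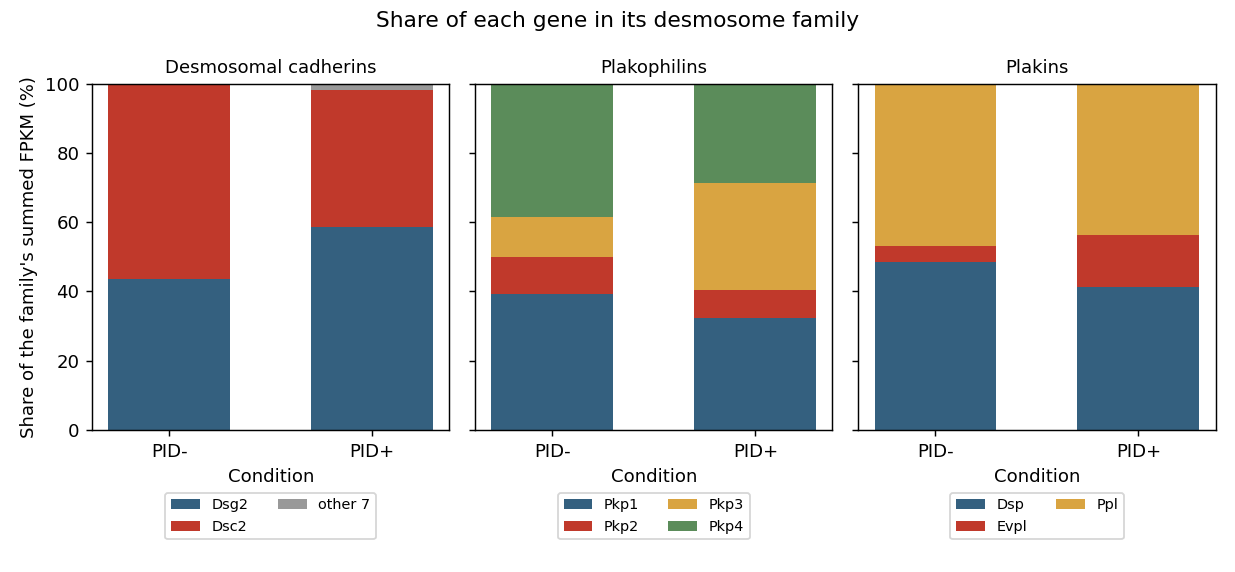
Share (%) of each gene in the summed FPKM of its family, in PID- and PID+ cells, for the desmosomal cadherins, the plakophilins and the plakins (with Ppl from the wider list). Pkp3 took 11.8% in PID- and 31.0% in PID+ cells, and Evpl 4.52% and 15.1%.

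Plakins connect the plaque to intermediate filaments. Desmoplakin (Dsp, ENSMUSG00000054889.6, chromosome 13 from 38151294 to 38198577), the obligate link to keratin, stood at 42.8 FPKM in PID+ (19.6 to 66.1) and 35.7 in PID- cells (15.95 to 55.5), with a log2 change of 0.26. Envoplakin (Evpl, ENSMUSG00000034282.3, chromosome 11 from 116220559 to 116238077), a plakin of the cornified envelope that also lies at desmosomes, stood at 15.7 FPKM in PID+ (6.52 to 24.8) and 3.33 in PID- cells (0.627 to 6.04), with a log2 change of 1.94. Evpl was the member with the largest log2 change and the only one of 10 whose intervals did not overlap. Intervals were apart with the higher value in PID+ cells for 0.187% of all genes and 0.375% of those averaging at least 5 FPKM.

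Periplakin (Ppl), the partner with which envoplakin forms heteromers, differed less than Evpl. Ppl stood at 45.4 FPKM in PID+ and 34.6 in PID- cells, with a log2 change of 0.38. Ppl lies on chromosome 16, and with chromosome medians subtracted, a comparison added after its value was seen, its change was 0.88 and that of Evpl 1.91. In the deposited values Evpl was at 0.0962 times the level of Ppl in PID- cells and at 0.346 times in PID+ cells. Evpl and Ppl had intervals apart in PID- cells and overlapping intervals in PID+ cells. In GENCODE M21 Evpl has 1 transcript, of 6384 bases, whereas Pkp3 has 9 and Pkp4 has 14. With 1 transcript an FPKM does not rest on dividing reads between isoforms. The authors' annotation may have held other transcripts of Evpl.

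The order of the levels was similar in both conditions at the top and bottom. Jup and Pkp1 ranked 1 and 2 in each, and Dsc3 ranked 10. Pkp3 ranked 3 in PID+ and 7 in PID- cells, and Dsp ranked 6 and 4. Neighbors in this order had overlapping intervals in both conditions, except that Dsc3 lay apart from the gene ranked 9, which was Pkp2 in PID+ and Evpl in PID- cells. The summed FPKM of the 10 genes was 409 in PID+ and 281 in PID- cells.

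**Figure D3:**
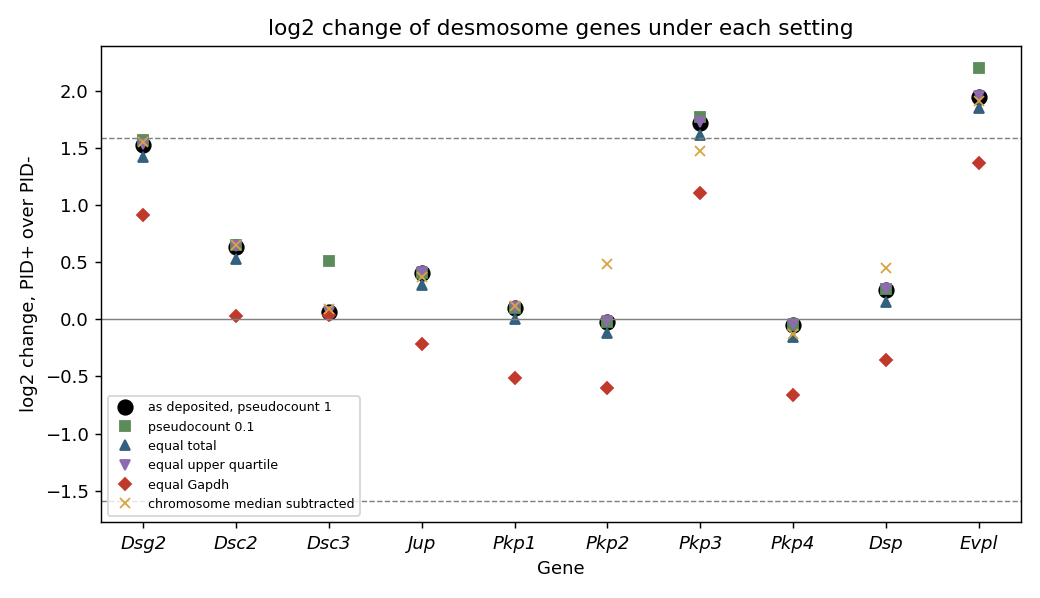
log2 change (PID+ over PID-) of each desmosome gene as deposited and under 5 other settings. Dashed lines mark 3-fold. Evpl, Pkp3 and Dsg2 have the 3 highest values under each setting and lie below 3-fold under equal Gapdh FPKM.

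Of 8 other desmosome and plakin genes, 0 were at least 3-fold higher or lower. Perp, a membrane protein of desmosomes, was at 161 in PID+ and 126 in PID- cells. Of 11 adherens junction genes, 11 had the higher value in PID+ cells, 4 by at least 2-fold and 0 by 3-fold, with a median log2 change of 0.35. The shares of all genes were 3.31% at 2-fold and 1.04% at 3-fold. For genes averaging at least 5 FPKM they were 5.01% and 1.54%, and 4660 of these 9341 had the higher value in PID+ cells. With equal Gapdh FPKM 5 of the 11 adherens junction genes were higher and 6 lower. All 9 that averaged at least 5 FPKM lay above the lowered median of genes at that level, as in the deposited values. With chromosome medians subtracted 9 were higher and 2 lower, and 7 of the 9 at that level lay above the median. In the deposited values the nearest to 3-fold was Nectin4, a cell adhesion receptor, at 26.9 and 8.86. Nectin2 at 68.4 and 27.1, Cdh1 at 192 and 88.0, and Nectin3 at 11.3 and 5.05 followed. Other genes of the list had closer values: Ctnna1 was at 248 and 228, Ctnnd1 at 128 and 121, Vcl at 35.6 and 32.7, Afdn at 101 and 79.0, and Nectin1 at 3.49 and 2.59.

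Among the 9 intermediate filament genes, 8 had the higher value in PID+ cells and Vim the lower. At 3-fold 0 were higher and 1 lower, and at 2-fold 4 were higher. The shares of all genes were 1.04% and 1.72% at 3-fold, and 3.31% higher at 2-fold. For genes averaging at least 5 FPKM they were 1.54%, 2.37% and 5.01%. With equal Gapdh FPKM 6 of the 9 filament genes were higher and 3 lower. The simple epithelial keratins that desmoplakin anchors were abundant in both conditions, with Krt8 at 2745 in PID+ and 1319 in PID- cells and Krt18 at 2843 and 1199. Krt19 was at 2469 and 2073, Krt7 at 1793 and 1303, and Krt20, a keratin of differentiated intestinal cells, at 158 and 73.5. The level of Dsp was 0.0156 times that of Krt8 in PID+ and 0.0271 times in PID- cells. Krt14, a basal keratin of stratified epithelia, was at 2.18 and 0.0912. Vim, the filament of mesenchymal cells, was at 19.1 and 997.

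The 12 transcription factors tied to junction genes split by direction, with 5 higher and 7 lower in PID+ cells, also with equal Gapdh FPKM, and 6 and 6 with chromosome medians subtracted. In the deposited values 1 of the 12 was higher by at least 3-fold and 3 were lower. The shares were 1.04% and 1.72% of all genes and 1.54% and 2.37% of those averaging at least 5 FPKM. The higher one, Grhl2, lay below 3-fold with equal Gapdh FPKM. Grhl and Ovol factors, which promote the epithelial state, had the higher values in PID+ cells, with Grhl2 at 31.1 against 7.38, Grhl1 at 4.20 against 1.20, Ovol2 at 5.41 against 1.14 and Ovol1 at 1.62 against 0.633. The factors of the epithelial to mesenchymal transition had the lower ones, with Zeb2 at 0.821 against 22.9, Zeb1 at 0.404 against 9.35, Snai2 at 1.01 against 11.5 and Twist1 at 12.8 against 22.2. Klf5 was at 45.6 and 58.6. Whether any of these factors bears on the desmosome genes was not tested.

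Of 4 kinases and proteases that act on desmosomes, 0 passed 3-fold. Egfr, which phosphorylates plaque proteins, was at 42.3 in PID+ and 24.9 in PID- cells. Adam10 and Adam17, proteases that shed cadherin ectodomains, were at 55.0 against 89.5 and at 29.3 against 31.6. Prkca, a kinase tied to desmosome adhesiveness, was at 16.03 and 19.2. In deposited values 1 of the 4 was higher in PID+ cells, and 2 were with chromosome medians subtracted.

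The E-box CAGGTG (or its reverse complement CACCTG), to which Snai and Zeb factors bind, and the Grhl motif AACCGGTT were searched on both strands in RefSeq promoter windows of GRCm38.p6, from 250 bases before to 50 after the start. Windows were given for 3 members, Dsp, Jup and Pkp4, with 4 starts between them. The E-box letters were in 1 window of Dsp and 1 of 2 windows of Pkp4, against 20.2% of 32851 windows. The Grhl letters were in 0 of the 4, against 0.146% of all windows. Both matches are shown with 10 bases on either side, since they are the places in these windows that hold the letters searched, with the E-box in capitals. The match of Pkp4 (chr2:59161812-59161837, plus strand) begins 47 bases before its start, and that of Dsp (chr13:38151287-38151312, plus strand) 3 bases after its start.
Pkp4: ccgcgataggCAGGTGtgtgcgtcca
Dsp: agaagccgacCAGGTGtggcctgggc
A match is a description of the letters, and binding was not measured.

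The labelled cell type was checked on markers. Of 10 genes chosen as markers of intestinal epithelium, 8 had the higher value in PID+ cells as deposited. Of these, 2 were higher by at least 3-fold (Epcam and Cldn7) and 6 by at least 2-fold, while 1 marker, Cdx2, was lower by 3-fold. The shares of all genes were 1.04% higher and 1.72% lower at 3-fold, and 3.31% higher at 2-fold. For genes averaging at least 5 FPKM they were 1.54%, 2.37% and 5.01%. With equal Gapdh FPKM 7 of the 10 markers were higher, and Epcam and Cldn7 lay below 3-fold. The median log2 change of the 10 went from 1.08 to 0.45. General epithelial genes were high, with Epcam at 401 in PID+ and 124 in PID- cells and Cldn7 at 274 and 79.4. The markers of intestinal cells were mixed. Krt20 was at 158 and 73.5, whereas Vil1 was at 0.175 and 0.0614, Cdx2 at 0.542 and 8.04, and Lgals4 at 1.86 and 3.43. The summed FPKM of the 10 markers was 9085 in PID+ and 4968 in PID- cells, led by Krt18 and by Krt19.

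Of 8 fibroblast markers, 7 were lower in PID+ cells (4 by at least 3-fold in the deposited values), under each scaling run, with sums of 3.005 FPKM in PID+ and 34.1 in PID- cells, with Col1a1 at 2.32 and 11.9 and Col1a2 at 0.0654 and 11.9. Dcn was listed at 0 in PID+ cells and at 2.39 in PID- cells, and Lum at 0 in both. At least 3-fold lower were 1.72% of all genes and 2.37% of those averaging at least 5 FPKM. The part of fibroblasts or of these marker genes in the desmosome values was not tested.

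Of 9 markers of stratified squamous epithelium, 7 had the higher value in PID+ cells (5 with equal Gapdh FPKM). On the FPKM + 1 scale 0 were higher by 3-fold and 1, Krt13, was lower by at least 3-fold, against 1.04% and 1.72% of all genes. Krt14, at 2.18 and 0.0912, had the highest log2 change of the list, 1.54, and lay below 3-fold because of the pseudocount. The sum of the 9 markers was 82.8 in PID+ and 90.9 in PID- cells. Krt6a led the list at 67.4 and 49.4, Krt13 was at 5.53 and 37.6, Ivl at 4.66 and 3.20 and Krt4 at 1.34 and 0.196, while Krt5 and Trp63 were below 1 in both. Dsg3 and Dsg1a are on this list too. The 5 muscle markers summed to 81.1 and 74.2, led by Tnnt2 at 76.3 and 64.2, with Acta2 at 4.39 and 9.76 and Des and Myh11 below 1. The 4 endothelial markers summed to 3.66 and 1.12, nearly all from Kdr. The 6 leukocyte markers summed to 21.9 and 16.9, led by Cd68, with Ptprc below 1 and Cd3e at 0 in both conditions. In the muscle, endothelial, leukocyte and platelet lists 0 genes passed 3-fold. The 3 platelet markers summed to 2.14 and 2.47, led by Itga2b.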

How the data were processed

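The authors cleaned the reads with CutAdapt, checked them with FastQC, aligned them to GRCm38.p3 with TopHat and Bowtie2, merged the reads of each condition and calculated FPKM with CuffDiff. The deposited table holds FPKM and its interval bounds for 21966 genes in 2 conditions. The condition named treated was read as PID+ and the one named untreated as PID-, after the labels, and 7 genes without an acceptable status were left out. Positions and transcripts came from GENCODE M21.

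The members and lists were chosen with earlier results of these data known. All 10 members are named; of the other lists, those reaching 1 FPKM in PID+ or PID- cells could be named, and any further gene was named with its value known.

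Depth per sample is unknown. The worth of a read was estimated from the steps in low values of genes with 1 transcript, and 91.8% of 742 values in PID+ and 90.6% of 710 in PID- cells fell within 0.1 of a whole read. The length correction of 180 bases was the best of 20 tried. Steps that are fractions of a read also give whole numbers, so a step was required to leave values at a single read. This requirement was added after looser searches had returned such fractions and after an earlier estimate was known, so the read numbers are not an independent estimate. At 1/2 of the chosen step, 0.382% and 0.209% of whole values were odd, against 62.1% and 64.2% at the step itself. Numbers of reads for genes with several transcripts use the longest and are approximate. A gene with no more than 3 reads in PID+ or PID- cells counted as being at the floor.

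The calculations were tested on simulated data. Python 3.11.15, numpy 2.4.6, pandas 2.3.3 and matplotlib 3.10.9 were used.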

Additional observations from a re-analysis of the deposited data

How the results depend on the processing

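The median log2 change of the 10 desmosome genes, 0.33, was 0.46 with a pseudocount of 0.1, 0.23 with equal total FPKM, 0.47 with chromosome medians subtracted and -0.093 with equal Gapdh FPKM. Gapdh was at 2570 in PID+ and 1666 in PID- cells, and setting it equal moved the median of genes averaging at least 5 FPKM to -0.58, and the median of the 9 desmosome genes at that level, -0.21, lay 0.37 above it. The 2 genes at least 3-fold higher became 1 with chromosome medians subtracted and 0 with equal Gapdh FPKM, and 0 were 3-fold lower under each setting run. Shares of all genes past 3-fold were calculated for the deposited values only. Whether the members changed more than other genes under these settings was not tested. Intervals were apart for 1 gene as deposited and for 3, Evpl, Dsg2 and Pkp3, when narrowed by a factor of 2. The share of all genes with narrowed intervals apart was not calculated. The 3 can therefore not be set against the share for the deposited intervals. Because deposited lower bounds end at 0, the narrowed width was taken from the upper bound. Over the 6 settings the log2 change ranged from 1.37 to 2.20 for Evpl, 1.11 to 1.77 for Pkp3 and 0.91 to 1.57 for Dsg2. Dsp, Jup, Pkp1 and Pkp2 each took both signs. Leaving out genes at the floor of reads removed cadherin genes near 0 and moved the cadherin shares by less than 1 percentage point; it removed no plakophilin or plakin, so their shares were not tested by it. The upper bounds of members other than Dsc3 lay 54.2% to 122% above the value, which limits what the pooled table can show. The labels name different mice for PID+ and PID- cells and give no pairs, so no paired analysis was made. Because the deposited table holds 1 pooled value per condition, no sample could be left out.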
